A study of Mus musculus with 42 samples.

Results

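The unfolded protein response and the chaperones of the endoplasmic reticulum (ER) were followed through 34 genes in ear skin, aorta and liver of mice with psoriasis-like skin disease. The 34 names were looked up in the gene name column of the deposited count table, and all 34 were found among its 48709 genes. They comprise 3 stress sensors, 5 transcription factors and feedback genes, 9 chaperones of the Hsp70 and Hsp90 systems with their helpers, 2 lectin chaperones, 5 protein disulfide isomerases, 7 genes of ER-associated degradation and 3 genes of the translocon. All mice of every group carried the K14-Rac1V12 transgene, an active form of the GTPase Rac1 driven by the keratin 14 promoter, which is active in basal keratinocytes, so none of the comparisons below has animals without it. The mice were 14 weeks old and had eaten an omega-3-deficient diet for 2 weeks when they were assigned to 12 further weeks on a diet with eicosapentaenoic acid (EPA), a diet with docosahexaenoic acid (DHA) or the omega-3-deficient diet (OD). These fatty acids of fish oil are both omega-3 and long-chain, and the chain of DHA is longer than that of EPA, with a further double bond. Each was given at 3 g per kg of diet, set as equivalent to a human intake of 4 g per day; the labels write EPA for the dose of both diets, which was read here as DHA for the DHA diet. Each tissue had 5 EPA, 5 DHA and 4 OD libraries, 42 in all, and each library of a group was read as a separate mouse; the sex of the mice is not in the labels. The ear was the psoriasis-like tissue, liver and vessels were flushed with saline, and the aorta was described as cleared of the fat around it.

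Secreted and membrane proteins fold in the ER, where Hspa5 (BiP) binds unfolded chains, lectin chaperones hold glycoproteins and disulfide isomerases join cysteines. When unfolded chains accumulate, the membrane sensors Ern1 (IRE1), Eif2ak3 (PERK) and Atf6 are released from Hspa5: IRE1 splices the Xbp1 transcript, PERK slows translation and so favours Atf4 and its target Ddit3 (CHOP), and Atf6 is cleaved into a transcription factor. Xbp1 and Atf6 then raise chaperone and degradation genes in mammalian cells. Hepatocytes make most plasma proteins and are rich in rough ER.

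Many of these chaperone promoters carry the ER stress response element (ERSE), the letters CCAAT and CCACG separated by 9 bases, which is known to be bound by NF-Y together with Atf6 or Xbp1. Promoters from 250 bases before to 50 bases after the RefSeq start (mouse build GRCm38.p6) were searched on both strands, and 29 of the 34 genes were in that table. The ERSE letters stood in 9 of the 29 genes (31%) and in 37 of all 27025 genes of the table (0.137%). The shorter form ERSE-II, ATTGG and CCACG separated by 1 base, stood in 2 of the 29 genes and in 12 of all genes (0.0444%). The ERSE or ERSE-II elements of the chaperone, lectin, isomerase and degradation genes whose levels are described below are printed 5′ to 3′ on the strand that holds them, with the fixed letters in capitals and the spacer in lower case.
Hspa5 (chr2:34772025-34772043, plus strand): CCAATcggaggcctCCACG
Hsp90b1 (chr10:86705533-86705551, plus strand): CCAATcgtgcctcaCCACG
Hsp90b1 (chr10:86705638-86705656, minus strand): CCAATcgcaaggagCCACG
Dnajc3 (chr14:118937827-118937845, plus strand): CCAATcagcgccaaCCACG
Creld2 (chr15:88819520-88819538, minus strand): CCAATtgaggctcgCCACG
Calr (chr8:84847075-84847093, plus strand): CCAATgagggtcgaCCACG
Canx (chr11:50325800-50325818, minus strand): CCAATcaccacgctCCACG
Pdia6 (chr12:17266491-17266509, plus strand): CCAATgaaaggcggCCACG
Syvn1 (chr19:6046532-6046550, plus strand): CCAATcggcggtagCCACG
Dnajb11 (chr16:22857852-22857862, plus strand): ATTGGcCCACG
Herpud1 (chr8:94386377-94386387, plus strand): ATTGGgCCACG
The Hspa5 element lay 65 to 47 bases before the start, and Hsp90b1 held a pair of elements at 212 to 194 and 107 to 89 bases before its start, on opposite strands. Derl3, on chromosome 10, was the other gene with ERSE letters. The XBP1 element, TGACG directly followed by TGG, was in 0 of the 29 windows (0.714% of all genes) and the ATF4 core, TGATG, any base and AA, in those of Trib3 and Herpud1 (4.51% of all genes), and the absence of these letters from a window says nothing on whether the factor acts on the gene. These matches describe the sequence and are not evidence of binding in these tissues.

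The libraries counted the 3′ ends of transcripts and were shallow: totals were 40157 to 220488 counts in skin (median 91629), 179795 to 717508 in aorta (452412) and 343824 to 768532 in liver (484510). A gene with 0 counts could therefore have had up to 3 counts, which is 13.6 to 74.7 CPM (counts scaled to a library total of 1000000) in skin libraries, 4.18 to 16.7 CPM in aorta and 3.90 to 8.73 CPM in liver, for counting error alone. These floors are scaled to all counts and cannot be read directly against the gene levels below, which are scaled to the tested genes. In skin library EPA 3, 3 counts are 61.9 CPM of all counts but 86.4 CPM in the fit of skin alone. Marker genes matched the tissue labels: 8 hepatocyte genes summed to 86663 to 136211 CPM in liver, 8 keratinocyte genes to 30363 to 44463 CPM in skin and 8 smooth muscle genes to 9003 to 21674 CPM in aorta. Aorta also held markers of brown adipocytes (1793 to 7402 CPM), white adipocytes (2755 to 6878) and fibroblasts (2495 to 5536). Skin also held those of fibroblasts (565 to 7147 CPM), skeletal muscle (174 to 3891) and hepatocytes (694 to 3611). Their part in the differences between tissues was not tested. Genes with enough counts were tested with the quasi-likelihood test of edgeR, p-values were adjusted by Benjamini and Hochberg over all genes tested, and a gene passed at an adjusted p under 0.05; levels are CPM of the tested genes after TMM scaling, either in the fit of all 42 libraries or in the fit of 1 tissue. Tests treat libraries as independent, although libraries of different tissues may share a mouse. Xist, the transcript of the silenced X chromosome, was above 200 CPM in 3 libraries of each tissue, 2 EPA and 1 DHA, and in 0 OD libraries. With libraries numbered in accession order these were EPA 1, EPA 5 and DHA 1 in skin, aorta and liver alike. The 3 tissues may therefore come from the same mice in the same order, and a fit by mouse was not run. Of the 34 genes, 30 were tested across tissues, 14 within skin, 26 within aorta and 27 within liver.

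Ern1, Eif2ak3, Trib3 and Derl3 were tested nowhere. Ern1 had 0 to 3 counts in skin libraries, 2 to 5 in aorta and 1 to 14 in liver. Eif2ak3 had 0 to 3, 0 to 12 and 0 to 7 counts in the same tissues, and Trib3, a pseudokinase induced by Atf4 and Ddit3, had 0 to 5, 0 to 4 and 1 to 5. Derl3, a derlin best known from secretory cells, had 0 counts in every skin library, 1 count in 1 aorta library and at most 3 counts in liver. Of the 3 sensors only Atf6 therefore had levels that could be compared.

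Across the 3 diets, most of the genes were lower in aorta and in skin than in liver. In aorta against liver 25 of 30 genes were lower and 2 were higher, where 30.5% of all 9912 genes tested were lower and 35.6% higher; in skin against liver 26 were lower and 2 higher, where 33.9% of all genes were lower and 37.4% higher. The median log2 difference of the genes was -1.30 in aorta minus liver (all genes 0.12) and -1.57 in skin minus liver (all genes 0.13). Some genes were tested only because liver had them, so the count was repeated over genes that also had enough counts within each of both tissues: 21 of 23 were lower and 0 higher in aorta (43.3% and 24.2% of all such genes), and 12 of 14 were lower and 1 higher in skin (32.7% and 44.9%). Every aorta library lay below every liver library for 17 of the 30 genes (12.6% of all genes), and every skin library did for 14 (14.1%). These counts include genes that had too few counts outside liver, for which the gap is a description. They were Sdf2l1 in aorta and Atf6, Derl1, Derl2, Edem1, Herpud1, Pdia4, Pdia5 and Sec61a1 in skin. Levels in the tissue comparisons are CPM in the fit of all 42 libraries. In bulk tissue, fewer cells of a type and less RNA per cell cannot be told apart.

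Disulfide isomerases, which form and rearrange the cysteine bonds of secreted proteins, were lower than in liver under TMM scaling in 3 of 3 genes that had enough counts in skin and liver and in 4 of 4 that had them in aorta and liver, and under total counts Pdia3 was higher in skin. Pdia4 and Pdia5 in skin and Pdia5 in aorta were tested only through the counts of another tissue, so that their values are a description. P4hb, protein disulfide isomerase itself, had a lowest, median and highest level of 166, 206 and 286 CPM in aorta and of 755, 1011 and 1337 CPM in liver. In skin P4hb had 105, 204 and 275 CPM. No aorta or skin library reached the lowest liver library. P4hb was 4.85-fold lower in aorta than in liver (log2 -2.28, SE 0.11, adjusted p = 5.16e-24, edgeR quasi-likelihood test, Benjamini-Hochberg, n = 14 libraries each). Against liver, skin was 5.22-fold lower (log2 -2.38, SE 0.12, adjusted p = 1.6e-23, same test). Pdia4, an isomerase with several thioredoxin domains, averaged 42.3 ± 23.8 CPM in skin, 59.1 ± 14.8 CPM in aorta and 287 ± 79.1 CPM in liver (SD, n = 14 each). Its log2 difference from liver was -2.67 in skin and -2.27 in aorta. Pdia6 was lower than in liver (log2 -1.91 in skin and -2.17 in aorta), as was Pdia5 (-4.47 and -2.84). The skin level of Pdia5 was at most 12.2 CPM with a median of 0, so its skin fold rests on few counts. Pdia3, the isomerase that works with the lectin chaperones, had the smallest differences of the 5, -0.41 in skin and -0.93 in aorta.

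Chaperones of the Hsp70 and Hsp90 systems were also lower than in liver, 4 of 4 with enough counts in skin and liver and 6 of 6 with enough in aorta and liver, except that Dnajb9 changed sign in aorta under total counts. Creld2, Dnajb11, Dnajb9, Hyou1 and Sdf2l1 were tested in skin minus liver only through the counts of other tissues, and so were Creld2, Hyou1 and Sdf2l1 in aorta minus liver, so that their values are a description. Hspa5, the ER Hsp70, had a lowest, median and highest level of 280.2, 376 and 533 CPM in aorta and of 595, 830.4 and 1867 CPM in liver. Skin libraries had 169, 355 and 727 CPM. Every aorta library lay below the lowest liver library, while the highest skin library lay within the liver range. Hspa5 was 2.41-fold lower in aorta (log2 -1.27, SE 0.16, adjusted p = 4.61e-10, edgeR quasi-likelihood test, Benjamini-Hochberg) and 2.55-fold lower in skin (log2 -1.35, adjusted p = 2.63e-10, same test). The skin call was lost under total counts (log2 -0.11, adjusted p = 0.466, edgeR). Hsp90b1, the ER Hsp90 also called GRP94, averaged 326 ± 99.98 CPM in skin, 469.9 ± 71.2 CPM in aorta and 1197 ± 265 CPM in liver, and no skin or aorta library reached the liver range. Dnajc3, an Hsp40 partner of Hspa5 known as p58IPK, was lower than in liver (log2 -2.57 in skin and -1.50 in aorta). In the same order, the differences from liver were -1.26 and -1.85 for Dnajb11, another Hsp40 partner, -3.10 and -3.09 for Sdf2l1, a partner of Dnajb11, and -1.55 and -1.37 for the secreted stress factor Manf. Creld2, another secreted stress-induced factor, and Dnajb9, an Hsp40 that targets clients for degradation, had values below 0 too (-1.67 and -1.86 for Creld2, -1.55 and -0.53 for Dnajb9). Hyou1, the large Hsp70 that exchanges the nucleotide of Hspa5, had -0.89 in skin and -0.51 in aorta, and both signs turned under total counts. The lectin chaperones Calr and Canx were lower in skin (log2 -1.14 and -0.38) and in aorta (-1.03 and -1.09), with both signs in skin turned under total counts.

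Degradation genes were lower in aorta than in liver in 5 of 5 with enough counts in both tissues, except that Derl1 was higher in aorta under total counts. In skin, Sel1l was the 1 of them with enough counts (1 of 1 lower); Derl1, Derl2, Edem1, Herpud1 and Syvn1 were tested there only through another tissue, as was Syvn1 in aorta, so that their values are a description. Herpud1, a scaffold of the retrotranslocation complex, had a lowest, median and highest level of 58.6, 96 and 143 CPM in aorta and of 234, 491 and 838 CPM in liver. Skin libraries had 17.6, 28.2 and 68.3 CPM, and neither tissue overlapped liver. Herpud1 was 5.09-fold lower in aorta (log2 -2.35, adjusted p = 3.33e-18, edgeR quasi-likelihood test, Benjamini-Hochberg), and its log2 difference in skin was -3.53. Edem1, a lectin that picks misfolded glycoproteins, had log2 differences of -1.93 in skin and -2.52 in aorta. The derlins, thought to form part of the retrotranslocation channel, had -2.23 and -1.79 for Derl2 and -1.77 and -0.41 for Derl1. Sel1l, the adaptor of the ubiquitin ligase Syvn1 (HRD1), had -1.26 and -0.96, and Syvn1 itself -2.31 and -0.83. Of the translocon, Sec61b was lower in skin (-1.73) and in aorta (-1.58), Sec61a1 was lower in aorta (-1.26) with a value of -1.60 in skin, where it had too few counts, and Ssr1, a subunit of the translocon-associated protein complex, did not pass in either (0.32 in skin, -0.14 in aorta). The sensor Atf6 was lower in aorta (-0.68, the sign turning under total counts), and had -1.44 in skin, again with too few counts.

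In the PERK branch, Ppp1r15a and Ddit3 had enough counts in aorta alone and entered the tissue comparisons only through it, so that they had to be high there to be tested and their values are a description. Ppp1r15a (GADD34), the stress-induced subunit that dephosphorylates eIF2 alpha, averaged 33.8 ± 26.5 CPM in skin, 34.8 ± 15 CPM in aorta and 9.03 ± 6.06 CPM in liver, with log2 differences from liver of 1.74 in skin and 1.96 in aorta. Ddit3, the pro-apoptotic factor CHOP, averaged 5.89 ± 8.19 CPM in skin, 23.8 ± 7.38 CPM in aorta and 9.93 ± 6.19 CPM in liver. Its log2 difference was 1.32 in aorta minus liver and -0.67 in skin minus liver, which did not pass but passed without OD skin library 3 (log2 -1.92, adjusted p = 0.0108, edgeR quasi-likelihood test, Benjamini-Hochberg) and was above 0 under total counts. In liver Ppp1r15a had 0 to 7 counts and Ddit3 0 to 6, and in skin Ddit3 had 0 to 3. Ddit3 overlaps Mars on the other strand while the counting is not stated to use strand. Atf4, the transcription factor of this branch, averaged 88.6 ± 33 CPM in skin, 58.2 ± 13.7 CPM in aorta and 67.1 ± 16.6 CPM in liver. Atf4 was higher in skin than in liver (log2 0.43, adjusted p = 0.0204, edgeR quasi-likelihood test, Benjamini-Hochberg), a call lost without OD skin library 1 (log2 0.22, adjusted p = 0.259) and without the libraries with high Xist (0.44, adjusted p = 0.0502), and it did not pass in aorta minus liver (-0.23, adjusted p = 0.173, same test). Xbp1, the factor of the IRE1 branch, averaged 94.2 ± 49.9 CPM in skin, 86.7 ± 12 CPM in aorta and 245 ± 78.2 CPM in liver, and was lower than in liver (log2 -1.34 in skin and -1.49 in aorta), the skin call being lost under total counts (log2 -0.14, adjusted p = 0.409, edgeR). The 3′ counts do not separate spliced from unspliced Xbp1.

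**Figure D1:**
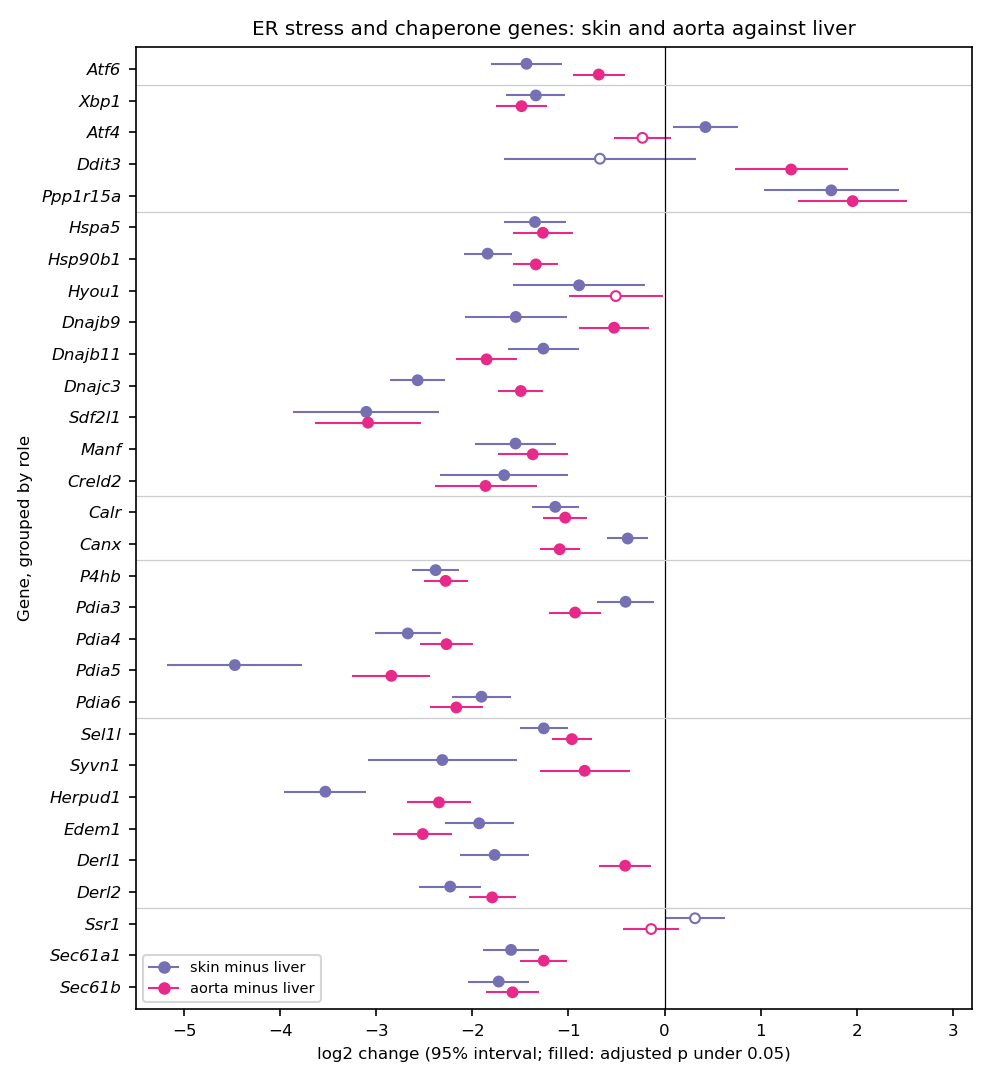
Log2 differences of 30 genes of the unfolded protein response and ER chaperones in skin minus liver and aorta minus liver over all diets, with 95% intervals (x axis, log2 of TMM-scaled CPM; y axis, genes grouped by role; 14 libraries per tissue). Filled points passed an adjusted p of 0.05, and nearly all of them lie below 0, with Ppp1r15a in both tissues, Ddit3 in aorta and Atf4 in skin above it. Filled points include genes without enough counts in both tissues compared, among them Ppp1r15a and Ddit3, and those points are a description.

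Between skin and aorta the genes split. In skin minus aorta 6 of 30 were higher and 11 lower (28.9% and 33.9% of all genes), and over genes with enough counts in both tissues 4 of 14 were higher and 3 lower (46.7% and 26.7%). Canx (0.71), Atf4 (0.66), Pdia3 (0.53), Ssr1 (0.46), Dnajb11 (0.59) and Edem1 (0.59) were higher in skin on the log2 scale. Derl1 (-1.36), Dnajc3 (-1.07), Herpud1 (-1.18), Ddit3 (-1.99), Hsp90b1 (-0.50), Atf6 (-0.75), Dnajb9 (-1.02), Syvn1 (-1.48), Pdia5 (-1.63), Derl2 (-0.44) and Sel1l (-0.29) were lower. Canx, Atf4, Pdia3, Ssr1, Dnajc3, Hsp90b1 and Sel1l were those with enough counts in both tissues. The other genes named had too few counts in skin and were tested only through another tissue, so that their values are a description. Of these, Syvn1 and Pdia5 had enough counts in liver alone. Hspa5 (-0.08, 95% interval -0.41 to 0.24) and Xbp1 (0.15, -0.18 to 0.47) did not pass, but under total counts both were called higher in skin (log2 0.41, adjusted p = 0.0127 for Hspa5, and log2 0.63, adjusted p = 0.00056 for Xbp1, edgeR). Canx was at 382 ± 86.4 CPM in skin and 236 ± 32 CPM in aorta, and 0 of the 30 genes had skin libraries wholly above or below the aorta libraries (5.22% and 9.81% of all genes).

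The tissue comparisons depended on scaling. With plain total counts in place of TMM the median of all genes moved to 0.81 in aorta minus liver, 1.31 in skin minus liver and 0.42 in skin minus aorta, and the medians of the 30 genes to -0.57, -0.38 and 0.29. The calls were then 5 higher and 20 lower in aorta minus liver against 2 and 25, 5 and 14 in skin minus liver against 2 and 26, and 11 and 6 in skin minus aorta against 6 and 11. Of the genes called with TMM, 22 of 27, 16 of 28 and 12 of 17 stayed called in the same direction. The calls lost were Derl1, Pdia3, Atf6, Dnajb9 and Syvn1 in aorta minus liver, Hspa5, Calr, Canx, Manf, Xbp1, Pdia3, Sel1l, Atf6, Hyou1, Dnajb9, Dnajb11 and Creld2 in skin minus liver and Hsp90b1, Sel1l, Derl2, Atf6 and Dnajb9 in skin minus aorta. Derl1 in aorta, and Canx and Pdia3 in skin, were called higher than in liver under total counts, and Hspa5 and Hsp90b1 changed sign in skin minus aorta (0.41 and 0.00).

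In liver, the DHA diet went with log2 differences below 0 for nearly all of the genes, none of which passed over all genes tested. Of 27 genes tested in DHA minus OD livers, 25 had a difference below 0, where 49.2% of all 5018 genes did, with a median of -0.32 against 0.01 for all genes. The count called was 0 of 27 (0% of all genes) by edgeR and 0 by DESeq2. Without the filter on low counts, however, edgeR called Hspa5 (log2 -0.75, adjusted p = 0.0371), Manf and Sdf2l1 lower, where 58 of all 18238 genes were lower. At an unadjusted p under 0.05 there were 10 of the 27 genes (6.16% of all genes), each with a difference below 0 (3.01% of all genes). These 10 were Pdia4 (-0.67), Hsp90b1 (-0.57), Pdia3 (-0.64), Xbp1 (-0.64), Sdf2l1 (-1.19), Dnajc3 (-0.54), Derl2 (-0.43), Hspa5 (-0.70), Calr (-0.49) and Manf (-0.90). The genes with the ERSE letters in their promoter window had 8 of 8 differences below 0 with a median of -0.50, and those with a window but no ERSE letters 13 of 15 with a median of -0.25; this is a description, and the difference was not tested.

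Library values, here and below in CPM of the fit of that tissue alone, are given for the genes with the smallest p and for the central factors. Pdia4 had 170.1, 254, 167, 219 and 136 CPM in the EPA livers, 172, 159, 137, 152 and 121 CPM in the DHA livers and 197, 218, 305 and 225 CPM in the OD livers. Every DHA liver lay below every OD liver, and the EPA livers overlapped both. The log2 difference of DHA minus OD was -0.67 (95% interval -1.06 to -0.28, unadjusted p = 0.0021, adjusted p = 0.712, edgeR quasi-likelihood test, Benjamini-Hochberg). Hsp90b1 had 884, 819.8, 586, 969 and 645 CPM in the EPA livers, 682, 643, 652, 614 and 644 CPM in the DHA livers and 845, 939.8, 1127 and 943 CPM in the OD livers. The 5 DHA livers lay close together and below the OD livers, while the EPA livers ranged from below the DHA livers to the OD level. The difference was -0.57 (-0.91 to -0.24, unadjusted p = 0.00211, adjusted p = 0.712, edgeR quasi-likelihood test, Benjamini-Hochberg). Dnajc3 was the third gene whose DHA and OD livers did not overlap; 3 of 27 genes lay wholly below, where 1.16% of all genes did.

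Hspa5 had 411, 673, 478, 1233 and 494 CPM in the EPA livers, 396, 447, 557, 564 and 417 CPM in the DHA livers and 849, 1037, 682 and 531 CPM in the OD livers. The highest liver of all was EPA 4, and 3 of the 5 DHA livers lay below the lowest OD liver, so the groups overlapped. The log2 difference of DHA minus OD was -0.70 (-1.29 to -0.11, adjusted p = 0.741, edgeR quasi-likelihood test, Benjamini-Hochberg) and that of EPA minus OD -0.24 (-0.82 to 0.35, adjusted p = 0.935). Manf had 71.2, 208, 130.4, 419 and 93.9 CPM in the EPA livers, 85.8, 113, 123, 150.1 and 108 CPM in the DHA livers and 272, 267, 187 and 139 CPM in the OD livers. EPA 4 was again the highest liver, and DHA and OD livers overlapped by 1 library of each diet. The difference of DHA minus OD was -0.90 (-1.71 to -0.08). Sdf2l1 had 13.8, 39.5, 16, 55.9 and 22 CPM in the EPA livers, 32.7, 21.4, 18.6, 17.9 and 14.3 CPM in the DHA livers and 44.3, 23.8, 74.5 and 52 CPM in the OD livers. The OD group held the highest liver and the DHA group the narrowest range, with overlap through DHA 1 and OD 2. The difference was -1.19 (-2.02 to -0.35) in DHA minus OD and -0.72 (-1.50 to 0.06) in EPA minus OD. Manf overlaps Rbm15b on the same strand, so reads of the 2 genes could be confused there.

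**Figure D2:**
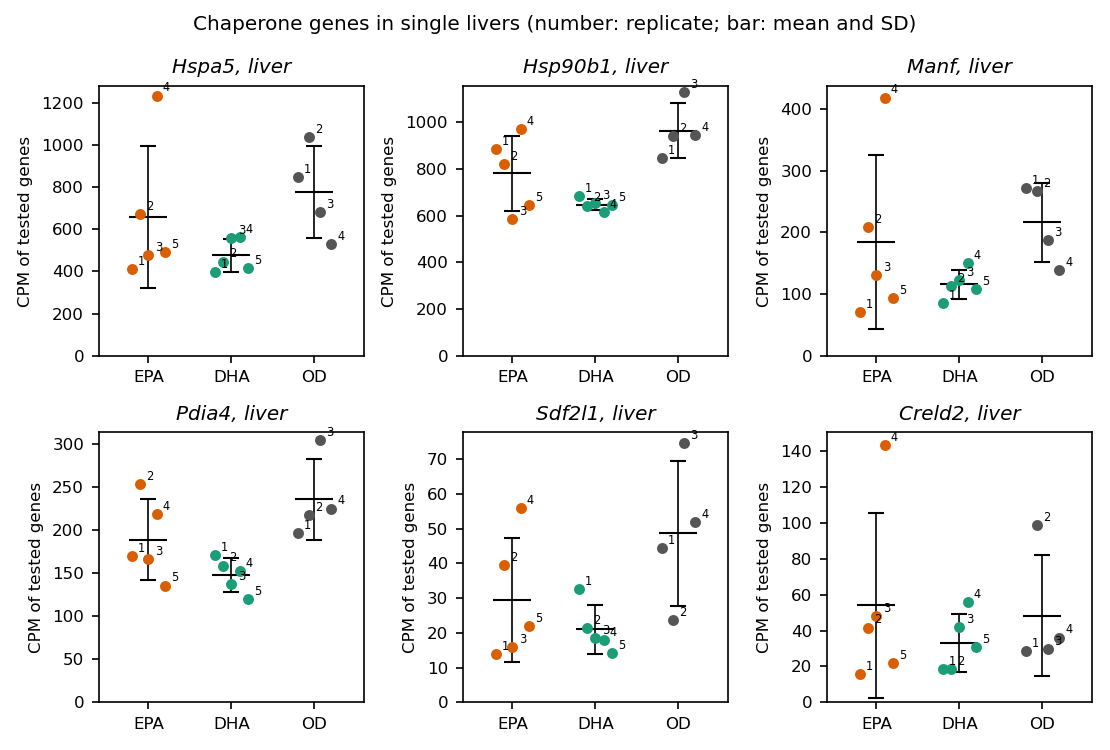
Levels of Hspa5, Hsp90b1, Manf, Pdia4, Sdf2l1 and Creld2 in single livers (y axis, TMM-scaled CPM of genes tested in liver; x axis, diet; points numbered by replicate; bars, mean and SD of 5 EPA, 5 DHA and 4 OD livers). The DHA livers lie below the OD livers without overlap for Hsp90b1 and Pdia4, and EPA liver 4 is the highest for Hspa5, Manf and Creld2.

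Xbp1 had 140.4, 179.8, 158, 163 and 168 CPM in the EPA livers, 139, 141, 90.9, 132 and 139 CPM in the DHA livers and 207, 154, 136 and 297 CPM in the OD livers. OD 4 was the highest liver and DHA 3 the lowest, and OD 3 lay within the DHA range. The log2 difference was -0.64 (-1.06 to -0.21, adjusted p = 0.712, edgeR quasi-likelihood test, Benjamini-Hochberg) in DHA minus OD and -0.30 (-0.72 to 0.11) in EPA minus OD. Atf4 had 39.6, 57, 34.3, 53.7 and 46 CPM in the EPA livers, 47, 55.1, 28, 51.5 and 18.4 CPM in the DHA livers and 40, 49.4, 51.1 and 46.2 CPM in the OD livers. The 3 diets overlapped over most of their range, with DHA 5 lowest. The differences were -0.01 (-0.55 to 0.53) for EPA and -0.24 (-0.79 to 0.32) for DHA against OD. Ddit3 had 3, 3, 5, 5 and 5 counts in the EPA livers, 3, 2, 0, 1 and 2 in the DHA livers and 4, 5, 6 and 0 in the OD livers, too few to test.

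The differences of EPA minus OD in liver were also mostly below 0. Of the 27 genes, 20 lay below 0 (49.1% of all genes), with a median of -0.19 (all genes 0.01). The count called was 0 (0% of all genes) by edgeR and by DESeq2, and 2 genes had an unadjusted p under 0.05 (6.7% of all genes). Pdia3 had 136, 105, 101, 129.8 and 112 CPM in the EPA livers, 151, 101, 163, 91.8 and 87.9 CPM in the DHA livers and 156, 177, 243 and 170.4 CPM in the OD livers. Every EPA liver lay below every OD liver, and DHA 3 overlapped the OD group. The difference of EPA minus OD was -0.67 (-1.08 to -0.25, unadjusted p = 0.00339, adjusted p = 0.438, edgeR quasi-likelihood test, Benjamini-Hochberg) and that of DHA minus OD -0.64. Derl2 had 71.2, 103, 77.8, 91.8 and 93.9 CPM in the EPA livers, 89.8, 85.7, 107, 76.2 and 85.8 CPM in the DHA livers and 142, 104, 93.7 and 137 CPM in the OD livers. The 2 upper EPA livers and the uppermost DHA liver lay above the lowest OD liver, so both groups overlapped OD. The differences were -0.45 (-0.80 to -0.11, adjusted p = 0.669, edgeR quasi-likelihood test, Benjamini-Hochberg) for EPA and -0.43 for DHA against OD. Both contrasts share the OD livers, so they are not independent. Pdia3 overlaps Catsper2 and Derl2 overlaps Mis12, each on the other strand.

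**Figure D3:**
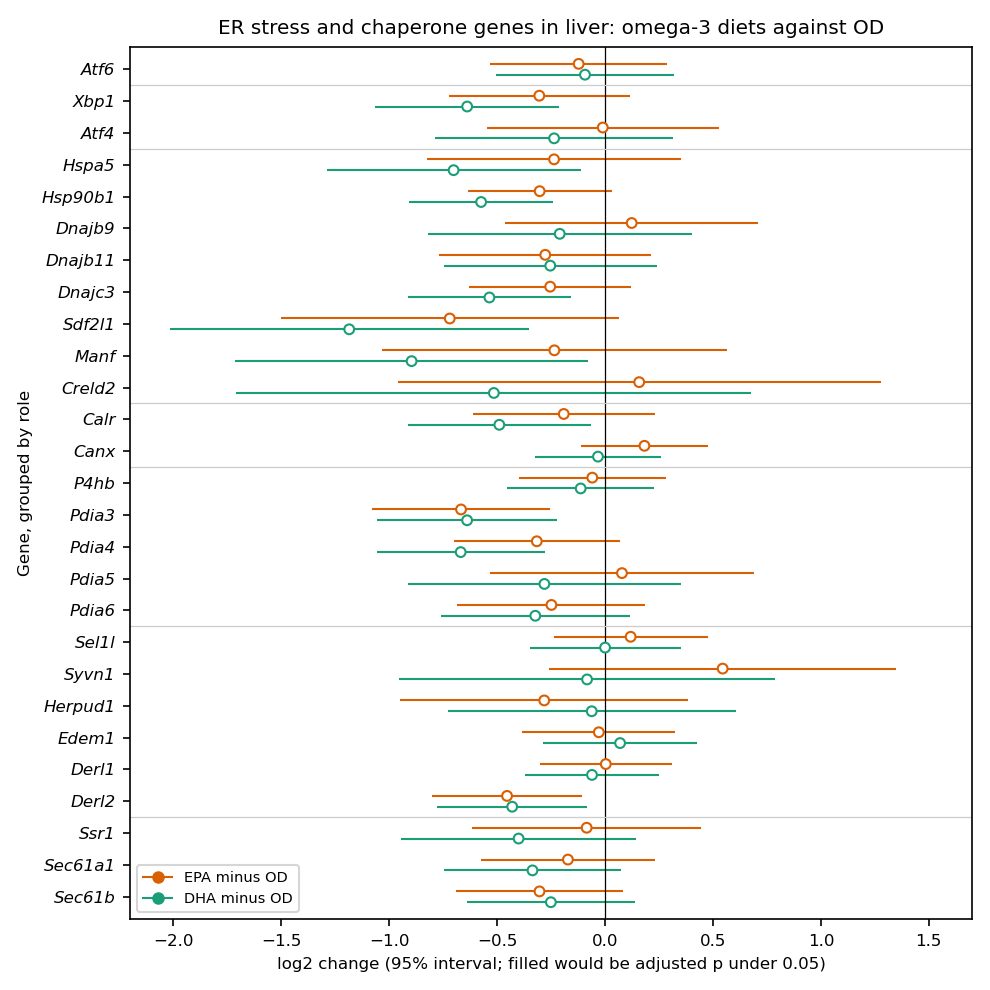
Log2 differences of 27 genes in EPA minus OD and DHA minus OD livers with 95% intervals (x axis, log2 of TMM-scaled CPM; y axis, genes grouped by role; 5 EPA, 5 DHA and 4 OD livers). All points are open because no gene passed an adjusted p of 0.05; 25 of the DHA points and 20 of the EPA points lie below 0.

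Depth and scaling moved with these liver differences. The OD livers were all deeper (549635 to 768532 counts) than the EPA (454677 to 497332) and DHA livers (343824 to 492254). With every liver thinned to the lowest total, 11 of 27 genes had an unadjusted p under 0.05 in DHA minus OD and the median was -0.37. With plain total counts, 7 genes did, the median was -0.17 against 0.15 for all genes, and Canx, P4hb, Derl1, Herpud1, Atf6 and Syvn1 changed sign. Leaving out each liver in turn gave 6 to 10 such genes and medians of -0.41 to -0.32 for DHA minus OD. For EPA minus OD the same range was 1 to 6 genes and -0.31 to -0.09, with 6 genes once EPA 4 was left out; without the 3 livers high in Xist, 2 EPA and 1 DHA, that median was 0.00. Summed plasma cell markers, cells rich in ER, were 211 to 525 CPM in EPA livers, 204 to 890 CPM in DHA livers and 45.5 to 463 CPM in OD livers, and their part in the result was not tested.

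In aorta, Derl1 was the 1 gene of the set that passed a diet comparison. Derl1 (chr15:57869502-57892448, minus strand, GRCm38) encodes derlin-1, a membrane protein that helps to move misfolded proteins out of the ER for degradation. Derl1 had 115, 174, 146, 124 and 172 CPM in the EPA aortas, 162, 197, 145, 136 and 133 CPM in the DHA aortas and 82.5, 100.4, 86.1 and 91.5 CPM in the OD aortas. Every EPA and every DHA aorta lay above every OD aorta. Derl1 averaged 146 ± 27.1 CPM on EPA, 155 ± 26.1 CPM on DHA and 90.2 ± 7.78 CPM on OD (SD, n = 5, 5 and 4). It rose 1.67-fold on DHA (log2 0.74, SE 0.17, 95% interval 0.39 to 1.09, adjusted p = 0.014, edgeR quasi-likelihood test, Benjamini-Hochberg), where 4.28% of all 6538 genes were higher and 0.597% lower, and 1 of 26 genes of the set was called (4.88% of all genes), a share close to that background. In EPA minus OD the difference was 0.69 (0.34 to 1.04, adjusted p = 0.0628, same test), which did not pass; 0 of the 26 genes passed there by edgeR, where 0.275% of all genes did, and 1, Derl1, by DESeq2. The share of genes with every library above the OD aortas was 5.38% for DHA and 1.9% for EPA.

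The DHA call for Derl1 was lost with total counts (log2 0.53, adjusted p = 0.0825), with libraries thinned to the lowest total (0.47, 0.325), in a fit of all 9 groups (0.77, 0.107), without OD 3 (0.71, 0.0580) and without OD 4 (0.74, 0.0670), all by edgeR with Benjamini-Hochberg adjustment; the direction held in each. Without EPA 1 the EPA difference passed (0.76, adjusted p = 0.0128). Cell type markers moved along with it: summed brown adipocyte genes were 3749 to 6358 CPM in EPA, 6316 to 7402 CPM in DHA and 1793 to 4336 CPM in OD aortas, with all 8 genes detected and 6 of the 8 higher on DHA. White adipocyte genes were 2755 to 6878, 4439 to 5991 and 2824 to 4655 CPM in the same groups, and smooth muscle genes 9536 to 14979, 9003 to 12160 and 12375 to 21674 CPM. Their part in the Derl1 result was not tested.

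**Figure D4:**
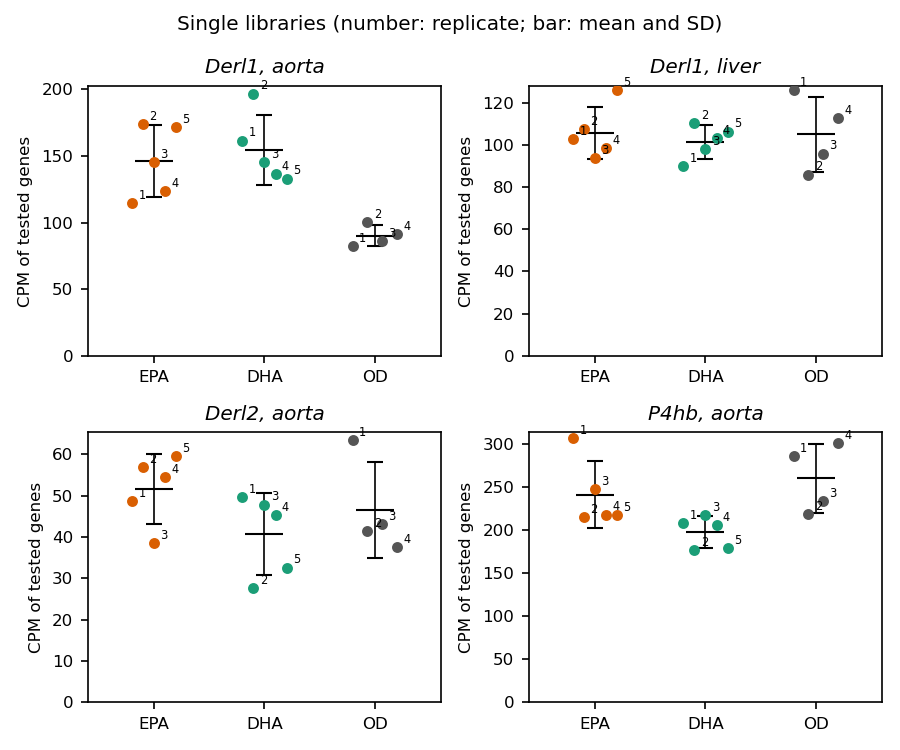
Levels of Derl1 in aorta and liver and of Derl2 and P4hb in aorta, by single library (y axes, TMM-scaled CPM of genes tested in that tissue; x axis, diet; points numbered by replicate; bars, mean and SD of 5 EPA, 5 DHA and 4 OD libraries). All EPA and DHA aortas lie above the OD aortas for Derl1, whereas the diets overlap for Derl1 in liver and Derl2 in aorta.

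In liver, Derl1 showed no such order. Derl1 had 103, 107, 93.8, 98.5 and 126 CPM in the EPA livers, 89.8, 110.2, 97.8, 103 and 106 CPM in the DHA livers and 126, 85.9, 95.8 and 113 CPM in the OD livers. The 3 diets overlapped, and the log2 difference of DHA minus OD was -0.06 (-0.37 to 0.25). The DHA effect on Derl1 in aorta minus that in liver was 0.88 (0.21 to 1.56, unadjusted p = 0.0116, adjusted p = 0.482, edgeR quasi-likelihood test, Benjamini-Hochberg), and the EPA effect 0.75 (0.08 to 1.42, adjusted p = 0.756), so a difference between the tissues did not pass. Over all 30 genes, 0 passed in either test of the diet effect between tissues (0.0202% of all genes for DHA and 0.0404% for EPA), by edgeR or DESeq2. At an unadjusted p under 0.05 there were 2 for DHA, Derl1 and Pdia3, and 2 for EPA, Derl1 and Derl2. For DHA, 26 of 30 differences between tissues lay above 0 with a median of 0.31 (all genes 0.01), and for EPA 19 of 30 with a median of 0.13 (0.02). With total counts these medians were -0.10 and -0.20.

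The other genes in aorta lay mostly a little below 0 against OD. In DHA minus OD 20 of 26 were below 0 (55.1% of all genes) with a median of -0.12 (all genes -0.05), and in EPA minus OD 19 of 26 (53.3%) with a median of -0.14 (-0.02). Derl1 was 1 of 4 genes with an unadjusted p under 0.05 on DHA (17.5% of all genes); Pdia4 (-0.56, adjusted p = 0.159, edgeR quasi-likelihood test, Benjamini-Hochberg), P4hb (-0.37, adjusted p = 0.176) and Hsp90b1 (-0.32, adjusted p = 0.242) were the others, which is close to the background share. Pdia4 had 55.7, 71.1, 66, 64.3 and 50.6 CPM in the EPA aortas, 31.1, 72.5, 69.7, 38.7 and 48.9 CPM in the DHA aortas and 88.9, 69.6, 79 and 76.8 CPM in the OD aortas. DHA 2 and DHA 3 reached above the lowest OD aorta, and the other DHA aortas lay below all 4. P4hb had 306, 215, 247, 218 and 217 CPM in the EPA aortas, 208, 176, 217, 205 and 179 CPM in the DHA aortas and 286, 218, 233 and 301 CPM in the OD aortas. The highest DHA aorta lay just under the lowest OD aorta. Hsp90b1 had 442, 514, 561, 485 and 419 CPM in the EPA aortas, 454, 432, 556, 491 and 364 CPM in the DHA aortas and 489, 554, 621 and 624 CPM in the OD aortas. The DHA group held the lowest aorta and the OD group the 2 highest, with overlap between. P4hb and Dnajc3 were the 2 genes whose DHA aortas all lay below the OD aortas, where 2.25% of all genes did.

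Of the transcription factors and feedback genes in aorta none passed. Ppp1r15a had 31.3, 42.7, 19.2, 14.8 and 32.5 CPM in the EPA aortas, 15.5, 24.2, 43.8, 40.4 and 59.8 CPM in the DHA aortas and 44.4, 60.2, 28.7 and 62.1 CPM in the OD aortas. The diets overlapped, and the EPA minus OD difference was -0.79 (-1.45 to -0.12, adjusted p = 0.284, edgeR quasi-likelihood test, Benjamini-Hochberg), beside Derl1 the other of 2 genes with an unadjusted p under 0.05 on EPA (12.6% of all genes). Hspa5 had 379, 455, 437, 383 and 333 CPM in the EPA aortas, 382, 394, 474, 563 and 299 CPM in the DHA aortas and 419, 534, 439.7 and 371 CPM in the OD aortas. DHA aortas held both the highest and the lowest level. The differences were -0.16 (-0.50 to 0.19) for EPA and -0.06 (-0.40 to 0.29) for DHA against OD. Xbp1 had 66.1, 96, 96.2, 104 and 79.6 CPM in the EPA aortas, 93.3, 93.3, 99.6, 87.4 and 70.6 CPM in the DHA aortas and 102, 103, 111 and 89.9 CPM in the OD aortas. The OD aortas lay in the upper part of a shared range, with -0.19 for EPA and -0.19 for DHA against OD. Atf4 had 76.6, 51.6, 66, 56.9 and 59.7 CPM in the EPA aortas, 43.5, 55.3, 93.7, 62.2 and 65.2 CPM in the DHA aortas and 82.5, 40.2, 50.2 and 65.4 CPM in the OD aortas. Ddit3 had 41.8, 14.2, 24.7, 19.8 and 18.1 CPM in the EPA aortas, 40.4, 20.7, 21.9, 30.3 and 24.5 CPM in the DHA aortas and 25.4, 26.8, 26.9 and 19.6 CPM in the OD aortas. For both genes the 3 diets overlapped. Atf4 had differences of 0.14 and 0.24 for EPA and DHA against OD, and Ddit3 of -0.15 and 0.16.

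In ear skin 14 of the 34 genes had enough counts, and 0 passed in any diet comparison by edgeR or DESeq2, as for all 2133 genes (0% called). Manf had 141, 122, 86.4, 114 and 150.4 CPM in the EPA ears, 175, 128, 160.4, 141 and 110.2 CPM in the DHA ears and 373, 171, 171 and 231 CPM in the OD ears. Every EPA ear lay below every OD ear, and DHA 1 reached into the OD range. These levels rest on few counts. They were 10, 11, 3, 6 and 18 on EPA, 21, 6, 26, 4 and 4 on DHA and 53, 14, 8 and 14 on OD. The overlap of Manf with Rbm15b, given above for liver, holds here too. The log2 difference was -0.95 (-1.55 to -0.36, unadjusted p = 0.00332, adjusted p = 0.975, edgeR quasi-likelihood test, Benjamini-Hochberg) in EPA minus OD and -0.72 (-1.31 to -0.14, adjusted p = 0.999) in DHA minus OD. Manf was the 1 gene of 14 with an unadjusted p under 0.05 in each (4.17% and 2.16% of all genes) and the 1 gene with EPA ears wholly below OD ears (0.844% of all genes). The 8 fibroblast marker genes, all detected, summed to 565 to 5626 CPM in EPA ears, 1079 to 3272 CPM in DHA ears and 2224 to 7147 CPM in OD ears. All 5 of them that were tested lay below 0 against OD without passing, with median log2 differences of -1.11 on EPA and -1.03 on DHA, and their part in the Manf result was not tested. Xbp1 had 155, 122, 115, 189.7 and 109 CPM in the EPA ears, 434, 170.1, 148, 211 and 165 CPM in the DHA ears and 274, 208, 235 and 116 CPM in the OD ears. DHA 1 stood far above the other ears, OD 4 was among the low ones and the diets overlapped. The differences against OD were -0.66 (-1.41 to 0.09) for EPA and 0.15 (-0.55 to 0.85) for DHA, and without DHA 1 that for DHA was -0.36.

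Hspa5 had 859.5, 601, 461, 493 and 844 CPM in the EPA ears, 668, 766, 845, 422 and 689 CPM in the DHA ears and 1322, 832, 513 and 743 CPM in the OD ears. OD 1 was the highest ear, and the diets overlapped. The differences against OD were -0.39 (-0.95 to 0.17) for EPA and -0.33 (-0.89 to 0.23) for DHA. Atf4 had 169, 178, 231, 322 and 184 CPM in the EPA ears, 184, 128, 179, 141 and 275 CPM in the DHA ears and 225, 110.2, 64.1 and 132 CPM in the OD ears. EPA 4 was highest and OD 3 lowest, with overlap of all 3 diets. The differences were 0.51 (-0.16 to 1.18) for EPA and 0.30 (-0.39 to 0.99) for DHA. Ddit3 had 1, 0, 0, 0 and 3 counts in the EPA ears, 1, 1, 2, 0 and 1 in the DHA ears and 0, 0, 3 and 0 in the OD ears. Over the 14 genes the medians were -0.02 for EPA and 0.10 for DHA against OD (all genes 0.01 and 0.00).

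**Figure D5:**
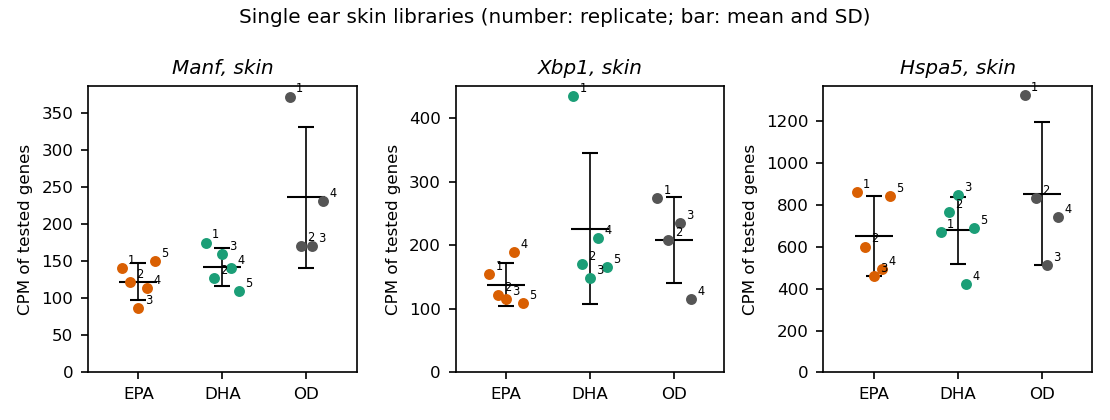
Levels of Manf, Xbp1 and Hspa5 in single ear skin libraries (y axes, TMM-scaled CPM of genes tested in skin; x axis, diet; points numbered by replicate; bars, mean and SD of 5 EPA, 5 DHA and 4 OD ears). All EPA ears lie below the OD ears for Manf, and DHA ear 1 stands above all others for Xbp1.

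EPA and DHA, given at the same dose for the same time, were compared directly for 14 genes of skin, 26 of aorta and 27 of liver, and 0 passed in any tissue by edgeR or DESeq2, where 0% of all genes did (lowest adjusted p 0.9999 among these genes, edgeR quasi-likelihood test, Benjamini-Hochberg). At an unadjusted p under 0.05 there were 1, 0 and 0 genes of the set, against 2.16%, 3.46% and 3.67% of all genes. The 95% interval lay within 1 log2 unit of 0 for 13 of 14, 22 of 26 and 22 of 27 genes, so a difference of 2-fold lay within the interval for Xbp1 in skin, for Ppp1r15a, Hyou1, Dnajb11 and Edem1 in aorta, and for Hspa5, Sdf2l1, Manf, Creld2 and Syvn1 in liver. A p that misses the threshold does not show that the 2 fatty acids act alike. In liver 20 of 27 differences of EPA minus DHA lay above 0 (48.9% of all genes) with a median of 0.23 (all genes 0.00); without the 3 livers high in Xist 7 genes had an unadjusted p under 0.05 and the median was 0.36. Leaving out each liver in turn gave 0 to 6 such genes, 6 of them without EPA 5, and medians of 0.11 to 0.29. The smallest p values there belonged to Pdia4 (0.35, -0.02 to 0.73), Hsp90b1 (0.27, -0.05 to 0.59) and Manf (0.66, -0.13 to 1.45), whose livers are given above. When each liver was left out in turn the differences lay at 0.23 to 0.46 for Pdia4, 0.19 to 0.36 for Hsp90b1, 0.12 to 0.88 for Manf and 0.11 to 0.60 for Hspa5. Hspa5 differed by 0.47 (-0.10 to 1.03), Xbp1 by 0.33 (-0.08 to 0.75) and Atf4 by 0.23 (-0.31 to 0.76).

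In aorta the differences of EPA minus DHA were split evenly around 0, 13 above (51.4% of all genes) and 13 below, with a median of 0.00. Edem1 had 27.8, 17.8, 33, 24.7 and 23.5 CPM in the EPA aortas and 37.3, 27.6, 15.9, 42 and 67.9 CPM in the DHA aortas. Dnajb11 had 27.8, 21.3, 49.5, 54.4 and 34.4 CPM in the EPA aortas and 28, 17.3, 31.9, 26.9 and 27.2 CPM in the DHA aortas. In both genes the diets overlapped, with differences of -0.61 (-1.25 to 0.02) for Edem1 and 0.45 (-0.11 to 1.02) for Dnajb11. P4hb differed by 0.27 (-0.02 to 0.56), Derl1 by -0.05 (-0.36 to 0.27), Hspa5 by -0.10, Xbp1 by 0.00, Atf4 by -0.10 and Ddit3 by -0.31. In skin Xbp1 differed by -0.81 (-1.53 to -0.09, unadjusted p = 0.0286, adjusted p = 0.9999, edgeR quasi-likelihood test, Benjamini-Hochberg), from the library values given above. P4hb had 254, 478, 288, 398 and 384 CPM in the EPA ears and 434, 447, 481, 493 and 358 CPM in the DHA ears. The 2 diets overlapped, and the difference was -0.28 (-0.74 to 0.19). Manf differed by -0.23, Hspa5 by -0.06 and Atf4 by 0.21.

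A further 127 genes that work beside these were followed in 7 lists. In diet comparisons 0 passed in any tissue by edgeR, of 35 tested in skin, 90 in aorta and 90 in liver. At an unadjusted p under 0.05 there were 4 for EPA (4.17% of all genes) and 0 for DHA (2.16%) against OD in skin, 7 (12.6%) and 10 (17.5%) in aorta, and 3 (6.7%) and 14 (6.16%) in liver. In DHA minus OD livers 63 of the 90 lay below 0, where 49.2% of all genes did, with a median of -0.15, and 13 of the 14 with a small p did. The differences below 0 were 17 of 21 with a median of -0.26 for folding and glycoprotein quality control, 21 of 27 with a median of -0.17 for the translocon, signal peptidase and glycosylation, 9 of 12 with a median of -0.18 for degradation, 7 of 10 with a median of -0.06 for targets of Atf4 and Ddit3, and 6 of 12 with a median of 0.03 for vesicle export from the ER. The remaining lists had 2 of 3 with a median of -0.07 for eIF2 alpha kinases and phosphatase and 1 of 5 with a median of 0.10 for regulated proteolysis and related transcription factors.

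Between tissues 20 higher and 74 lower of 113 of these genes passed in skin minus liver (37.4% and 33.9% of all genes), 20 higher and 67 lower of 113 in aorta minus liver (35.6% and 30.5%) and 25 higher and 46 lower of 113 in skin minus aorta (28.9% and 33.9%). Over those with enough counts in both tissues, 4 of 33 were higher and 25 lower in skin minus liver, 9 of 80 and 56 in aorta minus liver, and 9 of 35 and 15 in skin minus aorta. By list, in skin minus liver, translocon, signal peptidase and glycosylation genes had 0 higher and 26 lower of 28, folding genes 3 higher and 16 lower of 24 and targets of Atf4 and Ddit3 13 higher and 7 lower of 22, and in aorta minus liver the same lists had 1 higher and 23 lower of 28, 7 higher and 16 lower of 24 and 7 higher and 6 lower of 22. These counts by list include genes tested only through another tissue. Over genes with enough counts in both tissues, skin minus liver had 0 higher and 16 lower of 17 translocon genes. Folding genes had 0 and 1 of 3 there, and targets of Atf4 and Ddit3 2 and 3 of 6. In aorta minus liver the lists had 1 and 23 of 27, 3 and 13 of 17, and 1 and 3 of 8. Of all such genes 44.9% were higher and 32.7% lower in skin, and 24.2% and 43.3% in aorta. Of the genes named next, Creb3l3, Nupr1 and Serpinh1 against liver did not have enough counts within both tissues compared. The same held for Krtcap2 and Sar1b in skin minus liver and for Serpinh1 and Psat1 in skin minus aorta. Their values there are therefore a description. Creb3l3, an ER-anchored transcription factor known from liver and gut, had log2 differences from liver of -6.23 in skin and -7.60 in aorta. Nupr1, a stress-induced nuclear protein, was higher in aorta than in liver (6.22) and lower in skin than in aorta (-2.36). Serpinh1 (HSP47), the chaperone of collagen, was higher in aorta than in liver (3.81) and lower in skin than in aorta (-2.94). Ssr4 of the translocon-associated complex was lower than in liver in both (-1.67 in skin, -1.67 in aorta), as in skin were Krtcap2 of the oligosaccharyltransferase (-2.66) and the vesicle coat GTPase Sar1b (-2.39). Vcp, the ATPase that pulls proteins out of the ER membrane, and Psat1, an enzyme of serine synthesis, were higher in skin than in aorta (1.22 and 3.63).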

How the data were processed

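RNA of ear skin, aorta and liver was turned into libraries with the QIAseq UPX 3' kit, which tags each molecule with a unique molecular identifier, from 10 ng of RNA, per the labels, which name a NextSeq500 as the sequencer. The authors deposited a table of raw whole-number counts per gene and library, and a table of normalized values that was not used here; their processing notes list edgeR and the genome build GRCm38.p6. Not given in the sources used here are the aligner, the counter and whether molecular identifiers were collapsed. If they were not collapsed, counts are reads and not molecules. From the deposited counts, genes were filtered with filterByExpr (minimum count 10), scaled by TMM and tested with edgeR 4.0.16 (glmQLFit and glmQLFTest, R 4.3.3) in 1 fit of the 14 libraries per tissue, and in 1 fit of 42 libraries and 9 groups for tissue contrasts and for diet effects between tissues, with Benjamini-Hochberg adjustment over all genes tested at 0.05. Intervals are 95% intervals of the log2 difference. DESeq2 1.42.0 was an alternative; others were total counts scaling, DESeq2 size factors, no filter on low counts, thinning to the lowest total, leaving out high-Xist libraries (above 200 CPM) and leaving out each library. The script was tested on simulated data. Promoters came from RefSeq and positions from the GENCODE annotation of the same build. Groups came from the treatment and tissue labels, and replicates were numbered in accession order. The genes and lists were chosen with earlier results of these data known. Library values are given for genes past the threshold in a diet contrast, for the 3 with the smallest p in each, and for Hspa5, Xbp1, Atf4 and Ddit3; tissue contrasts name the 10 with the smallest p among others. No protein sequences were used here.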

Additional observations from a re-analysis of the deposited data

Results flagged for a closer look

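In 7 of the 201 combinations of gene, tissue and diet with 4 or 5 libraries, 1 library stood apart from the rest by Dixon's criterion at the 95% level, which chance meets in about 1 in 20. In liver, Xbp1 was low in DHA library 3 (90.9 CPM, the next at 132). Dnajc3 was high in OD library 3 (492 CPM, the next at 339). Creld2, a secreted stress-induced factor, was high in EPA library 4 (143 CPM, the next at 48.0) and in OD library 2 (98.7 CPM, the next at 36.1). Syvn1, the ubiquitin ligase HRD1, was high in DHA library 4 (29.1 CPM, the next at 14.3), and Ssr1 in EPA library 2 (134 CPM, the next at 80.6). In skin, Xbp1 was high in DHA library 1 (434 CPM, the next at 211).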

How the results depend on the processing

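Counts of called genes kept within 1.5 times their main value in 851 of 876 recomputed cases, and the others follow. The cause was not tested. Cases with a count of 0 in both also counted as kept, and the main count was 0 in all diet comparisons but DHA minus OD aortas. The share kept therefore says little on how firm the calls are. In DHA minus OD aortas 0 genes were higher (main count 1) with total counts, thinning and the fit of 9 groups, and 1 was lower with thinning (P4hb). In EPA minus OD aortas 1 was higher with DESeq2's test and with no filter. In DHA minus OD livers 3 were lower with no filter on low counts, Hspa5, Manf and Sdf2l1, where 58 of 18238 genes were lower. In aorta minus liver 5 were higher with total counts and 0 with thinning, and 10 lower with thinning. In skin minus liver 5 were higher with total counts, 1 without high-Xist libraries and 1 with thinning, and 14 lower with total counts and 7 with thinning. In skin minus aorta 11 were higher with total counts, 2 without high-Xist libraries and 3 with thinning, and 6 lower with total counts and 2 with thinning. Thinning leaves fewer genes to test. Leaving out 1 library at a time gave 0 to 1 higher in DHA minus OD aortas, 0 to 1 in EPA minus OD aortas, 1 to 3 in skin minus liver and 3 to 7 in skin minus aorta.

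These log2 differences changed sign. With total counts they were -0.0493 for Ddit3 in DHA minus OD aortas, 0.13 for Atf4 in EPA minus OD livers, 0.49 for Atf4 in aorta minus liver, 0.47 for Ddit3 in skin minus liver, and 0.000445 for Hsp90b1 and 0.41 for Hspa5 in skin minus aorta. With thinning they were -0.0469 for Xbp1 and 0.19 for Atf4 in EPA minus DHA aortas and 0.10 for Hspa5 in skin minus aorta, and in the fit of 9 groups -0.00397 for Xbp1 in EPA minus DHA aortas. Without high-Xist libraries they were 0.0293 for Hspa5 and 0.0535 for Atf4 in EPA minus OD livers, -0.36 for Xbp1 in DHA minus OD skin and -0.12 for Xbp1 in skin minus aorta. Leaving out 1 library gave -0.19 to 0.0556 for Hspa5 in DHA minus OD aortas, -0.0318 to 0.26 for Atf4 and -0.39 to 0.0109 for Ddit3 in EPA minus OD aortas, -0.20 to 0.0342, -0.0664 to 0.0700 and -0.20 to 0.0939 for Hspa5, Xbp1 and Atf4 in EPA minus DHA aortas, -0.0938 to 0.0743 for Atf4 in EPA minus OD livers, -0.36 to 0.38 for Xbp1 in DHA minus OD skin, -0.18 to 0.0425 for Hspa5 in EPA minus DHA skin and -0.0687 to 0.19 for Xbp1 in skin minus aorta. In DHA minus OD aortas total counts turned the split of all called genes to 79 higher and 126 lower, against 280 and 39. No paired analysis was run, because no label ties libraries of different tissues to a mouse. The high-Xist libraries had the same numbers in skin, aorta and liver, but a pairing by that order was not tried. The p-values between tissues therefore ignore any pairing.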

Other observations

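Among the 27 genes tested in liver, EPA library 2 was the highest of the 14 libraries for 7 genes, OD library 3 for 7 and EPA library 4 for 5, and EPA library 1 was the lowest for 8. Among the 14 genes tested in skin, OD library 1 was the highest for 5. Plasma cell markers in aorta summed to 198 to 1527 CPM on EPA, 133 to 862 CPM on DHA and 44.5 to 225 CPM on OD, and hepatocyte markers in liver to 92646 to 136211 CPM on EPA, 103453 to 128489 CPM on DHA and 86663 to 102503 CPM on OD. The promoters with ERSE letters belonged to 8 genes tested in liver, whose EPA minus DHA differences were all above 0 with a median of 0.29. Genes with a window but no ERSE letters had 9 of 15 above 0 with a median of 0.12, and those without a window 3 of 4. The difference was not tested. DHA minus OD uses the same DHA livers, so the 2 contrasts are not independent.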
